A study of Mus musculus with 4 samples.

Results

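The insulin, insulin-like growth factor, leptin and adiponectin systems were followed through 5 genes by single-nucleus RNA-seq in mouse tissue dissected around the deep nuclei of the cerebellum, through which the cerebellum sends its output. The genes were the growth factor Igf1 and the receptor genes Igf1r, Insr, Lepr and Adipor2. They were chosen by name, and all 5 were among the 15632 genes of the deposited tables, with counts in each of 4 libraries. The series concerns glutamatergic neurons of these nuclei and the cerebellar control of satiation. All mice were C57BL/6J and carried Ai32, a reporter of channelrhodopsin fused to EYFP that Cre recombination switches on. In the Ucn3-Cre mice a transgene drives Cre from the urocortin 3 gene. Ucn3-Cre replicate 1 was a female sample aged 3 months with nuclei from an iodixanol gradient, and Ucn3-Cre replicate 2 was a male sample aged 3 months with nuclei from a sucrose cushion. In the vGluT2-Cre mice a transgene drives Cre from Slc17a6, the gene of the vesicular glutamate transporter VGLUT2. vGluT2-Cre replicate 1 was a male sample aged 2 months and vGluT2-Cre replicate 2 a female sample aged 2.5 months, both from a sucrose cushion. The labels mention no sorting step and do not give the number of mice per library. The 4 libraries differed in line or sex, and p-values measure only the spread between these libraries, which may be technical.

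Insulin and IGF1 act on related receptor tyrosine kinases, encoded by Insr and Igf1r, which signal through insulin receptor substrates, phosphoinositide 3-kinase and AKT to the FOXO transcription factors and mTOR. Circulating IGF1 is bound by a family of IGF-binding proteins, and neurons and glia also make IGF1 locally. The leptin receptor Lepr is a cytokine receptor that signals through JAK2 and STAT3 and is best known from hypothalamic neurons that control appetite. Adipor2 is a membrane receptor of adiponectin, a hormone of fat tissue, and works with the adaptor APPL1, AMP-activated kinase and the nuclear receptor PPAR-alpha. In the brain, endothelial cells of the blood-brain barrier carry receptors for insulin, IGF1 and leptin and take these hormones up from blood.

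The libraries held 4291 and 6587 nuclei in Ucn3-Cre mice and 5642 and 4974 nuclei in vGluT2-Cre mice, with 9096357 to 19125488 counts per library and a median of 1730 to 3206 counts per nucleus. Of the barcodes, 41 (0.191%) occurred in more than 1 library. After removal of likely doublets, 20547 nuclei were clustered without the 5 genes and their pathway lists, and clusters were named from marker genes. The 9 classes compared were glutamatergic nuclear neurons (547 nuclei), inhibitory nuclear or Golgi neurons (1094), molecular layer interneurons (246), endothelial cells (738), mural cells (183), oligodendrocyte precursors (694), astrocytes (5027), oligodendrocytes (11176) and microglia (744). Slc17a6 averaged 200.2 ± 40.6 CPM in the glutamatergic class, against class means of 17.0 to 40.8 CPM in the other 8 classes. Gad1, which encodes a GABA-synthesizing enzyme, averaged 249 ± 49.7 CPM in the inhibitory class and 332 ± 70.9 CPM in molecular layer interneurons, against 22.2 ± 11.9 CPM in the glutamatergic class (SD, n = 4 libraries). Of the molecular layer interneuron markers, the sum was 4808 to 5781 CPM in that class but also 4095 to 4584 CPM in oligodendrocyte precursors. The endothelial class held mural RNA as well: mural markers summed to 4456 to 6432 CPM in it, against 13620 to 16660 CPM in the mural class. At a finer clustering given below, a cluster led by smooth muscle genes (267 nuclei) fell mainly within the endothelial class. So did a cluster that mixed mural and endothelial genes (82 nuclei). Values of the endothelial class are those of this mixture. A further deposited table, which the submitters named vglut2, held 480 of the nuclei, and 472 of the 547 glutamatergic nuclei were in it. CPM are the gene's share of all counts of a class in a library, scaled to a total of 1000000. They allow a gene to be compared between classes but not 2 genes with each other, since they are not corrected for gene length.

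Promoter windows of 4 of the genes are shown as a description. A link between them and how widely the genes were detected across the classes below was not tested. They are 300-base windows around a start that RefSeq gives on GRCm38.p6, printed 5′ to 3′ on the gene's strand with CG dinucleotides in capitals. The Igf1r window lies at chr7:67952007-67952306 on the plus strand, the Adipor2 window at chr6:119388685-119388984 on the minus strand, the Lepr window at chr4:101717157-101717456 on the plus strand and the Igf1 window at chr10:87860861-87861160 on the plus strand. Set against the gene spans given with each gene, which come from the annotation of the gene IDs, the Lepr window covers the start of the span, the Igf1r window ends before it, and the Adipor2 and Igf1 windows lie inside the span.
Igf1r: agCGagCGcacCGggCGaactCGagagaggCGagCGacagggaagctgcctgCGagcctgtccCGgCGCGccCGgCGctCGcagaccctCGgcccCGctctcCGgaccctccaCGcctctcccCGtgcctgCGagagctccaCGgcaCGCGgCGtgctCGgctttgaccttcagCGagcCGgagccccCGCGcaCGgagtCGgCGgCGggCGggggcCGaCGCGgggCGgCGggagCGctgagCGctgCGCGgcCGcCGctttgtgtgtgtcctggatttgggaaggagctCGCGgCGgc
Adipor2: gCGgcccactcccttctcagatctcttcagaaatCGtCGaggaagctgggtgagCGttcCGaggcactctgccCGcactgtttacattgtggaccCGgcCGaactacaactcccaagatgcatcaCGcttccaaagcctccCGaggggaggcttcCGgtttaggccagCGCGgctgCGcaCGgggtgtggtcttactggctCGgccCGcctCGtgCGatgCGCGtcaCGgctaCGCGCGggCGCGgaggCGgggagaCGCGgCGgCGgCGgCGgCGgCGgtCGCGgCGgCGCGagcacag
Lepr: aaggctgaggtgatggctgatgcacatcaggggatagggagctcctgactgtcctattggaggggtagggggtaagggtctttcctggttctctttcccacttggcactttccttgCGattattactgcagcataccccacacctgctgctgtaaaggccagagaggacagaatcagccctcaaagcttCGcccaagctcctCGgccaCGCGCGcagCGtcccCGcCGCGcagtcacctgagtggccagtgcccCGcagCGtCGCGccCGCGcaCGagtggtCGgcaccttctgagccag
Igf1: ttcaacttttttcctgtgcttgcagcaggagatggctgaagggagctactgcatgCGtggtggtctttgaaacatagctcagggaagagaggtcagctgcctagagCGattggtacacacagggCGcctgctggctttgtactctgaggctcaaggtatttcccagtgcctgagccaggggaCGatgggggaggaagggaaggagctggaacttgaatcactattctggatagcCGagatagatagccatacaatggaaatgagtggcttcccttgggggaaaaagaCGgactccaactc
CG dinucleotides numbered 48 in the Igf1r window, 41 in the Adipor2 window, 18 in the Lepr window and 6 in the Igf1 window, against a median of 7 over 32851 promoter windows of the same length. The GC content was 76.0% for Igf1r, 68.7% for Adipor2, 61.3% for Lepr and 52.3% for Igf1, against a median of 52.7%. The motif GGGCGG, searched on both strands, occurred 2 times in the Igf1r window and not in the other 3, and 35.7% of all windows held it. TATAAA and CACGTG, found in 13.6% and 7.15% of all windows, were not in any of the 4. A second Lepr window, at chr4:101717656-101717955, held 13 CG dinucleotides and 1 GGGCGG. Insr had no entry in that table.

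All 5 genes differed between the classes in a test over all 9 (edgeR quasi-likelihood F test with the library as block, adjusted p = 5.24e-21 for Igf1, 5.88e-33 for Igf1r, 8.85e-22 for Insr, 7.36e-18 for Lepr and 5.56e-41 for Adipor2). This count is close to the background, since 95.6% of the 12287 genes tested were called. The genes differed in the order of the classes. Among these 9, Igf1 was highest in glutamatergic neurons, Igf1r, Insr and Lepr were highest in endothelial cells, and Adipor2 was highest in oligodendrocytes. The classes were drawn from the same counts, so p-values between them are too small, although these genes took no part in the clustering. Only Ucn3-Cre replicate 1 came from an iodixanol gradient, so the values without it are those within the sucrose libraries. They are given where they end a call.

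**Figure D1:**
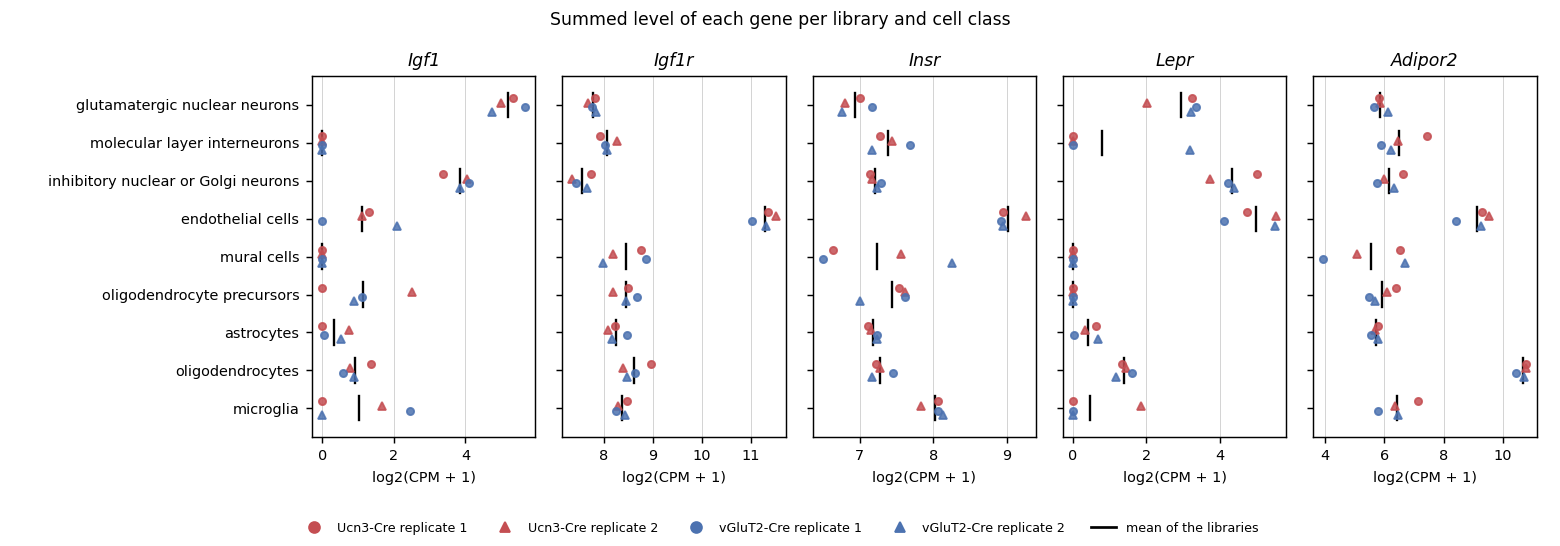
Level of each gene as log2(CPM + 1), x axis, in 9 cell classes, y axis, with a point per library (red Ucn3-Cre, blue vGluT2-Cre, circles replicate 1, triangles replicate 2) and a black line at the mean of 4 libraries. Igf1 is highest in glutamatergic neurons, Igf1r and Insr in endothelial cells and Adipor2 in oligodendrocytes, while the Lepr points of endothelial cells and inhibitory neurons overlap.

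Igf1 is the ligand among the 5 (ENSMUSG00000020053, chr10:87858265-87937042 on the plus strand of GRCm38). Perivascular macrophages, described at the end and not tested, had 621 CPM of Igf1 pooled from 19 nuclei. Among the 9 classes compared, Igf1 was detected mainly in glutamatergic neurons and in inhibitory neurons, which may be nuclear or Golgi neurons. In the glutamatergic class its level was 39.6 and 30.8 CPM in Ucn3-Cre replicates 1 and 2, and 50.0 and 25.8 CPM in vGluT2-Cre replicates 1 and 2. In the inhibitory class it was 9.34 and 15.4 CPM in the Ucn3-Cre libraries, and 16.3 and 13.4 CPM in the vGluT2-Cre libraries. The lowest glutamatergic library stood above the highest inhibitory one, so the classes did not overlap. Glutamatergic neurons averaged 36.5 ± 10.7 CPM and inhibitory neurons 13.6 ± 3.1 CPM (SD, n = 4 libraries), a log2 fold change of 1.43 (SE 0.25, adjusted p = 1.02e-05), higher in 4 of 4 libraries. Of the 5 genes 2 were called between these classes, Igf1 higher and Lepr lower, beside 23.9% of all genes, 12.5% higher and 11.5% lower. The call rested on comparing classes within a library: without the library as block the log2 fold change was 1.49 with an adjusted p of 0.198.

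A count of Igf1 was found in 112 of 547 glutamatergic nuclei and in 72 of 1094 inhibitory nuclei. The glutamatergic nuclei were deeper, with a median of 9556 counts against 5270 in inhibitory nuclei. At a common depth of 1000 counts per nucleus, the expected share of glutamatergic nuclei with an Igf1 count was 4.01%, against 1.32% of inhibitory nuclei. Before thinning the share was 20.5% of glutamatergic and 6.22% of inhibitory nuclei. In the other classes the mean was 1.68 ± 2.06 CPM in oligodendrocyte precursors, 1.65 ± 2.11 CPM in microglia, 1.47 ± 1.36 CPM in endothelial cells, 0.914 ± 0.470 CPM in oligodendrocytes and 0.293 ± 0.329 CPM in astrocytes. These classes show the level to be read as background: 26 of 11176 oligodendrocytes held a count. The ranges of the 5 classes overlapped, and none overlapped that of inhibitory neurons.

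No count of Igf1 was found in 246 molecular layer interneurons, which allows a share of up to 1.22% of nuclei with a count, or in 183 mural cells, which allows up to 1.64%. Against the limit of 3 counts over the class, Igf1 was at least 3.04-fold lower in molecular layer interneurons than in inhibitory neurons (adjusted p = 0.00344, lower in 4 of 4 libraries), where 14% of all genes were called, 5.64% higher and 8.32% lower. In the same comparison Igf1r had a log2 fold change of 0.47 (SE 0.19, adjusted p = 0.0910), Insr of 0.17 and Adipor2 of 0.18, none of them called. Astrocytes against oligodendrocytes gave -1.14 for Igf1 (SE 0.64, adjusted p = 0.114), and oligodendrocyte precursors against oligodendrocytes gave 1.02 (SE 0.87, adjusted p = 0.352).

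Within the glutamatergic neurons, Igf1 was concentrated in a sub-cluster. The 480 nuclei of the vglut2 table fell into 8 sub-clusters, made without the 5 genes. Sub-cluster 1, led by Kynu, Bnc2 and Igf1 itself, held 69 nuclei and had 318.3 and 134.5 CPM in the Ucn3-Cre libraries, and 329.1 and 125.0 CPM in the vGluT2-Cre libraries. Replicate 1 of each line was high and replicate 2 low, and among libraries with at least 5 nuclei of a sub-cluster the lowest value lay just above the highest of any other sub-cluster, 123.9 CPM in sub-cluster 2. In sub-cluster 6 a library with 1 nucleus had 126.6 CPM. A count was found in 35 of the 69 nuclei, in 5 of 11 and 6 of 20 nuclei of the Ucn3-Cre libraries and in 17 of 26 and 7 of 12 nuclei of the vGluT2-Cre libraries. Of these 69 nuclei, 53 held a count of the receptor Igf1r, and 27 held counts of both Igf1 and Igf1r. Joint detection beyond what these shares give was not tested.

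The mean was 227 ± 112 CPM in sub-cluster 1 (SD, n = 4 libraries). It was 59.9 ± 44.1 CPM in sub-cluster 2, led by Lmx1a and Hpse2, and 45.2 ± 19.6 CPM in sub-cluster 4, with Sema3a and Rorb among its leading genes. Sub-cluster 0, led by Hs6st3 and Nts, had 17.8 ± 5.23 CPM. Sub-clusters 5 and 3 were lowest, at 5.15 ± 10.3 and 4.39 ± 5.47 CPM, with 3 of 43 and 3 of 94 nuclei holding a count. Sub-clusters 2 and 4 overlapped in their libraries, and so did sub-clusters 5 and 3.

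In an F test over the sub-clusters Igf1 was called (edgeR, adjusted p = 7.64e-13), as were 22% of the 6051 genes tested. Igf1r (adjusted p = 0.266), Insr (adjusted p = 0.998) and Adipor2 (adjusted p = 0.984) were not, and Lepr did not pass the filter on low counts. Sub-cluster means were 174 to 312 CPM for Igf1r, 114 to 149 CPM for Insr and 38.0 to 56.3 CPM for Adipor2. Of the list of IGF ligands and binding proteins, 1 gene could be tested here and was called: Pappa, a protease that cleaves IGF-binding proteins (adjusted p = 1.67e-06). Of 17 genes of receptor signalling 2 were called, the receptor adaptors Grb10 (adjusted p = 1.34e-08) and Grb14 (adjusted p = 0.00238). Sub-cluster 7, led by Slc6a5 and Slc32a1, which are transporters of inhibitory transmitters, goes against the table's name. Without it the adjusted p for Igf1 was 2.34e-13, and over all alternatives it was between 2.31e-47 and 6.82e-09.

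**Figure D2:**
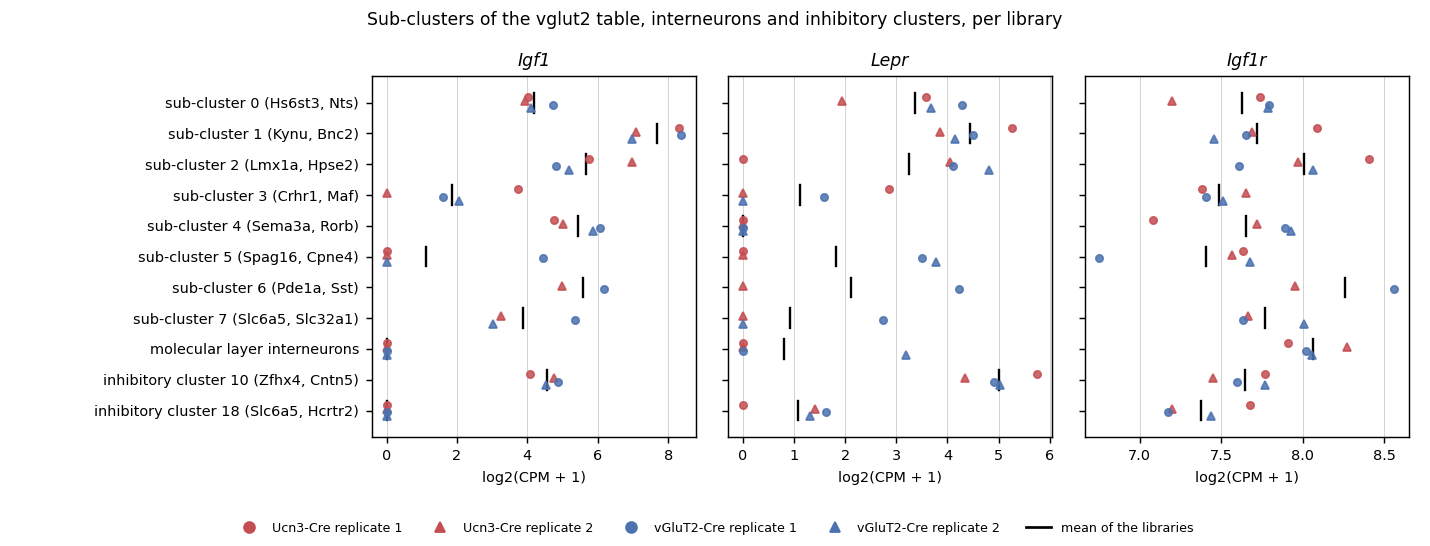
Level of Igf1, Lepr and Igf1r as log2(CPM + 1), x axis, in 8 sub-clusters of the vglut2 table, molecular layer interneurons and 2 inhibitory clusters, y axis, with a point per library that held at least 5 nuclei and a black line at the mean of the points. Igf1 is highest in sub-cluster 1 (227 CPM on average), Lepr is highest in inhibitory cluster 10 (33.3 CPM), and both are at or near 0 in inhibitory cluster 18.

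The inhibitory class held 2 clusters that differed in Igf1 as well. Cluster 10, led by Zfhx4 and Cntn5, had 16.0 and 26.0 CPM in the Ucn3-Cre libraries, and 28.1 and 22.0 CPM in the vGluT2-Cre libraries, with a count in 72 of 664 nuclei. Cluster 18, with Slc6a5, Kit and Hcrtr2 among its leading genes, had none in 430 nuclei, which allows a share of up to 0.698%. All Igf1 counts of the class thus came from cluster 10, at least 20.7-fold above the limit in cluster 18. This difference is a description and was not tested.

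Lepr, the leptin receptor (ENSMUSG00000057722, chr4:101717404-101815352 on the plus strand), had low levels in endothelial cells and in glutamatergic and inhibitory neurons. Mean levels in the other classes compared were lower, although the libraries of molecular layer interneurons (0 to 8.09 CPM) overlapped those of glutamatergic neurons. Endothelial cells had 25.8 and 45.2 CPM in the Ucn3-Cre libraries, and 16.4 and 44.1 CPM in the vGluT2-Cre libraries, and 70 of 738 nuclei held a count. Inhibitory neurons had 30.97 and 12.14 CPM in the Ucn3-Cre libraries, and 17.7 and 19.9 CPM in the vGluT2-Cre libraries, with a count in 97 of 1094 nuclei. Glutamatergic neurons had 8.51 and 3.02 CPM in the Ucn3-Cre libraries, and 9.09 and 8.27 CPM in the vGluT2-Cre libraries, with a count in 39 of 547 nuclei. Endothelial cells and inhibitory neurons overlapped, while every glutamatergic library lay below every inhibitory one.

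The means were 7.22 ± 2.82 CPM in glutamatergic and 20.2 ± 7.91 CPM in inhibitory neurons (SD, n = 4 libraries), a log2 fold change of -1.29 (SE 0.32, adjusted p = 0.00191), lower in 4 of 4 libraries. Without the library as block the same change was -1.38 with an adjusted p of 0.286. The inhibitory signal came almost wholly from cluster 10, where Lepr had 53.2 and 19.3 CPM in the Ucn3-Cre libraries, and 29.0 and 31.8 CPM in the vGluT2-Cre libraries, in 94 of 664 nuclei. Cluster 18 had a mean of 1.3 ± 0.902 CPM, in 3 of 430 nuclei. The 2 clusters did not overlap, and the 3 nuclei of cluster 18 came from 3 different libraries. Of the 94 nuclei of cluster 10 with a Lepr count, 11 also held Igf1 and 70 held Igf1r. Among all 664 nuclei of the cluster, 72 held Igf1 and 428 held Igf1r, and joint detection beyond these shares was not tested.

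Endothelial markers were read beside Lepr in the neuron classes. The 8 markers reached 0.174% of their endothelial level in inhibitory neurons and 0.105% in glutamatergic neurons. Lepr reached 74.9% of its endothelial level in inhibitory neurons (26.9 to 120% over libraries) and 28.5% in glutamatergic neurons (6.69 to 55.4%). Other classes give the background: Lepr averaged 1.63 ± 0.335 CPM in oligodendrocytes, with a count in 42 of 11176 nuclei, and 0.356 ± 0.268 CPM in astrocytes, with a count in 7 of 5027. Microglia and molecular layer interneurons held 1 nucleus with a count each, and none was found in 694 oligodendrocyte precursors, which allows a share of up to 0.432%.

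Molecular layer interneurons were called lower than inhibitory neurons (adjusted p = 0.00995, lower in 4 of 4 libraries), from 1 count against 115, a ratio of 0.0854 with an exact 95% counting interval of 0.00214 to 0.485. Without vGluT2-Cre replicate 1 this call was lost (adjusted p = 0.0830). Astrocytes against oligodendrocytes had 5 counts against 40, a ratio of 0.226 (exact 95% counting interval 0.0695 to 0.571), also called (adjusted p = 0.00301, lower in 4 of 4 libraries). Endothelial cells were at least 3.77-fold above the limit of mural cells, where none of 183 nuclei held a count (adjusted p = 0.000936, higher in 4 of 4 libraries). Glutamatergic and inhibitory neurons were at least 4.79-fold and 12.4-fold above the limit of oligodendrocyte precursors. Molecular layer interneurons, at 2.02 ± 4.04 CPM, overlapped oligodendrocytes. The mean of the neuron classes was called higher than that of the glial classes (adjusted p = 0.00607), with no fold given since precursors were at 0. That call was lost without vGluT2-Cre replicate 2 (adjusted p = 1.00).

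Of 9 leptin signalling genes tested, 1 was higher and 1 lower in glutamatergic than in inhibitory neurons, where 23.9% of all genes were called, so the count is near the background. The list had a median of 0.03 on the log2 scale against -0.01 over all genes. Jak2, the kinase bound to the leptin receptor, averaged 36.2 ± 2.42 CPM in glutamatergic and 25.9 ± 3.69 CPM in inhibitory neurons (log2 fold change 0.55, SE 0.17, edgeR adjusted p = 0.0131). Stat5b, a transcription factor of cytokine receptors, averaged 60.1 ± 14.7 CPM in glutamatergic and 93.4 ± 11.7 CPM in inhibitory neurons (log2 fold change -0.52, SE 0.14, adjusted p = 0.00431). Leaving out vGluT2-Cre replicate 2 ended both calls, and leaving out Ucn3-Cre replicate 2 ended that of Jak2. Neurons against glia had 5 of 9 lower and none higher, among them Leprot, an endosomal regulator of leptin receptor traffic whose gene adjoins Lepr, at -1.91 (SE 0.19, adjusted p = 1.36e-12) and Stat5a at -2.14 (SE 0.39, adjusted p = 4.31e-06). The list median was -0.62 there, against -0.07 over all genes, of which 61.6% were called, 28.7% higher and 32.9% lower. Of the 5 genes 4 were called in that comparison, Lepr higher and Igf1r, Insr and Adipor2 lower.

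Igf1r, the IGF1 receptor (ENSMUSG00000005533, chr7:67952827-68233668 on the plus strand), was detected in every class and stood highest in endothelial cells. Endothelial cells had 2603 and 2900 CPM in the Ucn3-Cre libraries, and 2072 and 2518 CPM in the vGluT2-Cre libraries. Mural cells had 430.9 and 288.8 CPM in the Ucn3-Cre libraries, and 464.3 and 250.9 CPM in the vGluT2-Cre libraries. Slc6a20a, Abcc9 and Vtn were among the leading genes of this class. A finer cluster led by smooth muscle genes, described below, lay mainly in the endothelial class instead. The lowest endothelial library was several times the highest mural one. The means were 2523 ± 343 CPM in endothelial and 359 ± 105 CPM in mural cells, a log2 fold change of 3.19 (SE 0.19, adjusted p = 1.65e-19), higher in 4 of 4 libraries. A count was found in 606 of 738 endothelial nuclei, with up to 134.5 counts in a nucleus. That nucleus lay in finer cluster 26, which mixed mural and endothelial genes. In finer cluster 28, named endothelial, the highest count was 73.8. Both clusters are described below.

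Outside the vessels the Igf1r means lay closer together. They were 395 ± 74.5 CPM in oligodendrocytes, 351 ± 46.3 CPM in oligodendrocyte precursors, 328 ± 25.4 CPM in microglia, 302 ± 34.9 CPM in astrocytes and 268 ± 29.0 CPM in molecular layer interneurons. Glutamatergic neurons, at 217 ± 11.7 CPM, and inhibitory neurons, at 186 ± 23.0 CPM, were lowest. Neighbours in this order overlapped in their libraries, except that every glutamatergic library lay below every one of molecular layer interneurons. Glutamatergic against inhibitory neurons gave a log2 fold change of 0.32 (SE 0.15, adjusted p = 0.117), which did not pass the threshold. Neurons were lower than glia, with a log2 fold change of -0.82 (SE 0.09, adjusted p = 2.65e-11), in 4 of 4 libraries. Astrocytes against oligodendrocytes gave -0.45 (SE 0.14, adjusted p = 0.00319), lower in 4 of 4 libraries. In this comparison 3 of the 5 genes were called, Igf1r, Lepr and Adipor2, all lower, beside 66.5% of all genes, 33.4% higher and 33.1% lower. Without Ucn3-Cre replicate 1, the library from the iodixanol gradient and the highest in oligodendrocytes at 498.6 CPM, the Igf1r change was -0.31 and no longer called (adjusted p = 0.0875).

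Insr, the insulin receptor (ENSMUSG00000005534, chr8:3122061-3279617 on the minus strand), had the same leading class with a smaller range. Endothelial cells had 490.3 and 611.5 CPM in the Ucn3-Cre libraries, and 483.1 and 491.5 CPM in the vGluT2-Cre libraries. Mural cells had 97.9 and 187.6 CPM in the Ucn3-Cre libraries, and 89.1 and 304.2 CPM in the vGluT2-Cre libraries. The mural libraries spread widely but all lay below every endothelial one. Endothelial cells averaged 519 ± 61.7 CPM and mural cells 170 ± 100.1 CPM (log2 fold change 1.67, SE 0.22, adjusted p = 1.48e-08), higher in 4 of 4 libraries.

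Microglia came next for Insr, with 267.2 and 226.6 CPM in the Ucn3-Cre libraries, and 266.5 and 278.1 CPM in the vGluT2-Cre libraries, above all libraries of oligodendrocyte precursors at 175 ± 32.5 CPM. The means of the other classes beside mural cells were 122 to 168 CPM, with glutamatergic neurons lowest at 122 ± 16.4 CPM. Glutamatergic against inhibitory neurons gave -0.19 (SE 0.12, adjusted p = 0.280), and oligodendrocyte precursors against oligodendrocytes gave 0.0022 (SE 0.13, adjusted p = 0.992). Neurons were lower than glia with a log2 fold change of -0.28 (SE 0.09, adjusted p = 0.00442), in 4 of 4 libraries.

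Mural cells alone, at 359 ± 105 CPM of Igf1r and 170 ± 100.1 CPM of Insr, overlapped every glial class in both genes. Endothelial cells stood above them all. The mean of endothelial and mural cells, set against glia, was higher in Igf1r (log2 fold change 1.10, SE 0.13, adjusted p = 1.54e-10, 4 of 4 libraries) and in Insr (0.75, SE 0.15, adjusted p = 2.41e-05, 3 of 4 libraries). Of all genes tested 48.3% were called, 2486 higher and 3451 lower. With DESeq2 the split was 3413 higher and 2905 lower. For Adipor2 the change was -0.21 (SE 0.21, adjusted p = 0.444) and was 0.012 at the finer clustering and 0.13 with doublets kept, neither called. Lepr and Igf1 gave no usable estimate in edgeR, since mural cells and, for Lepr, oligodendrocyte precursors were at 0.

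In endothelial against mural cells 4 of the 5 genes were called higher, all but Igf1, while 21.6% of all genes were called, 15.8% higher and 5.8% lower. The median log2 fold change over all genes was 0.35, and 0.18 with the RLE scaling, so values are to be read relative to that shift. The all-gene split was 1936 higher and 713 lower, against 1387 and 1055 with DESeq2. At the finer clustering, nuclei with endothelial genes fell into clusters with and without genes of mural cells. The endothelial class was made up mainly of clusters 28, 26 and 20. These held 41, 25 and 4 nuclei with a Lepr count, against 70 in the class. Their Adipor2 counts were 897.5, 414 and 200.1, against 1512 in the class. Cluster 28 (394 nuclei), led by Slco1a4 and Flt1, had the highest Igf1r, with 3628 and 3555 CPM in the Ucn3-Cre libraries, and 3274 and 3524 CPM in the vGluT2-Cre libraries. Its Insr averaged 676 ± 49.0 CPM, its Lepr 43.1 ± 7.45 CPM and its Adipor2 752 ± 156 CPM (SD, n = 4 libraries). For all 4 genes these means were above those of the whole endothelial class.

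Cluster 20 (267 nuclei), led by Acta2, Tagln and Myh11, genes of vascular smooth muscle, had 733 ± 108 CPM of Igf1r, 223 ± 28.7 CPM of Insr, 281 ± 97.9 CPM of Adipor2 and 10.6 ± 16.3 CPM of Lepr. It stayed unnamed: endothelial markers scored highest, at 2.207 against 2.202 for mural ones, but its leading genes held mural and no endothelial markers. Cluster 26 (82 nuclei) held mural genes such as Rgs5 and Vtn beside endothelial Cldn5 and Flt1, at 2.87 times the median depth. In its 2 libraries with at least 20 nuclei it had 3193 ± 571 CPM of Igf1r and 41.0 ± 17.1 CPM of Lepr, overlapping cluster 28 in both. Cluster 31 (177 nuclei), the mural cells, had 346 ± 130 CPM of Igf1r and no Lepr count. The 2 clusters named from their markers, 28 and 31, thus stood farther apart in Igf1r than the classes did.

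**Figure D3:**
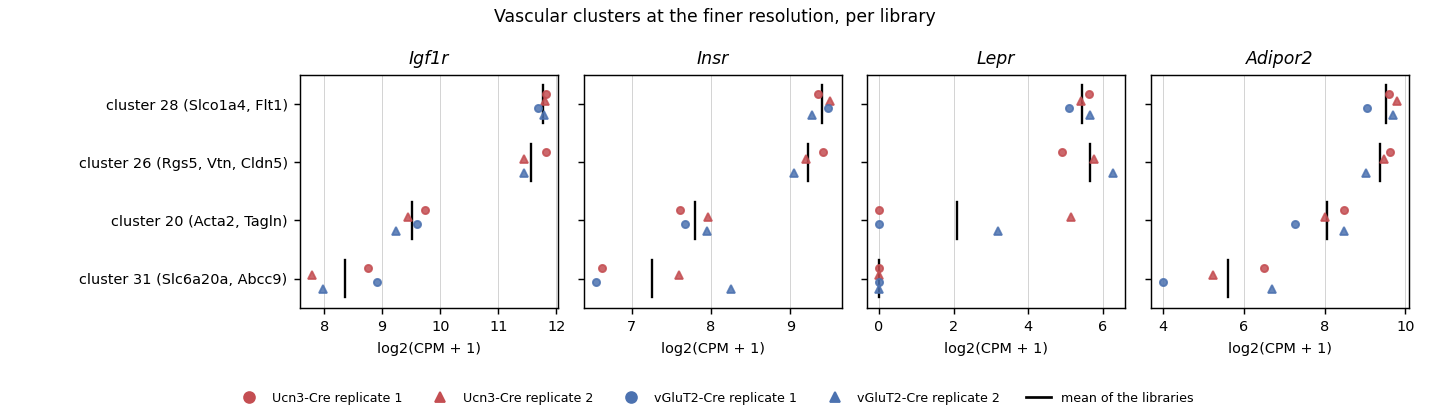
Level of Igf1r, Insr, Lepr and Adipor2 as log2(CPM + 1), x axis, in 4 vascular clusters of the finer clustering, y axis, with a point per library that held at least 5 nuclei and a black line at the mean of the points. Cluster 28 is high in all 4 genes (Igf1r 3495 CPM on average), cluster 20 lies between and cluster 31 is lowest in Igf1r, at 346 CPM.

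Genes that act beside these receptors were read in endothelial against mural cells, where 21.6% of all genes were called, 15.8% higher and 5.8% lower. Of 6 IGF ligands and binding proteins tested there, 3 were higher and none lower, with a list median of 1.57. Igfbp5 averaged 72.2 ± 27.5 CPM in endothelial and 5.94 ± 7.27 CPM in mural cells (log2 fold change 3.56, SE 0.75, adjusted p = 0.000193). Igfbp7, another binding protein, marked both, with 1385 ± 213 CPM in endothelial and 1790 ± 235 CPM in mural cells, and vascular cells exceeded glia by 7.30 on the log2 scale (SE 0.12, adjusted p = 4.76e-46). Igfbp2 and Igfbp4 were higher too, but both calls were lost without Ucn3-Cre replicate 1 or vGluT2-Cre replicate 2, that of Igfbp4 also without vGluT2-Cre replicate 1, and Igfbp4 had no count in mural cells.

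Of 24 genes of insulin and IGF receptor signalling 5 were higher and 5 lower in endothelial than in mural cells, beside the 21.6% of all genes called, with a list median of 0.04. Of these 10 calls 4 were lost when a library was left out, those of Grb2, Pik3cb, Pik3r1 and Irs1, and that of Grb2 also with DESeq2. Higher were Grb14, an adaptor that binds the active insulin receptor (log2 fold change 2.51, SE 0.31, adjusted p = 3.22e-09), and Foxo1, a transcription factor that AKT holds out of the nucleus (2.40, SE 0.34, adjusted p = 7.64e-08). Igf2r, the receptor that clears IGF2, was lower (-2.45, SE 0.23, adjusted p = 1.03e-12). Irs1, an insulin receptor substrate, was lower by the main test (-1.84, SE 0.45, adjusted p = 0.00144), and this call was lost without vGluT2-Cre replicate 2. Leprot was higher, at 103 ± 18.3 CPM in endothelial and 31.5 ± 11.3 CPM in mural cells (log2 fold change 1.88, SE 0.40, adjusted p = 0.000267), the 1 call among 9 leptin signalling genes, a share below that of all genes.

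Among 7 adiponectin signalling genes, Cdh13, which encodes the adiponectin-binding T-cadherin, was higher in endothelial cells, at 79.9 ± 43.6 CPM against 1.95 ± 3.91 CPM in mural cells (log2 fold change 4.45, SE 1.02, adjusted p = 0.000646). Ppara was lower (-1.91, SE 0.53, adjusted p = 0.00573). Cdh13 was not called at the finer clustering. The other metabolic hormone receptors had 2 of 7 higher and 2 lower, among them Nr3c1, the glucocorticoid receptor (1.10, SE 0.23, adjusted p = 0.000235), and Gipr, the receptor of the incretin GIP (-3.91, SE 0.48, adjusted p = 4.89e-09), which averaged 4.08 ± 2.74 CPM in endothelial and 98.4 ± 28.8 CPM in mural cells.

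Adipor2, an adiponectin receptor (ENSMUSG00000030168, chr6:119353150-119417704 on the minus strand), was highest in oligodendrocytes, with 1768 and 1769 CPM in the Ucn3-Cre libraries, and 1391 and 1665 CPM in the vGluT2-Cre libraries. Oligodendrocyte precursors, the dividing cells from which they derive, had 84.1 and 67.0 CPM in the Ucn3-Cre libraries, and 43.5 and 50.0 CPM in the vGluT2-Cre libraries. Astrocytes had 54.8 and 50.7 CPM in the Ucn3-Cre libraries, and 46.3 and 53.8 CPM in the vGluT2-Cre libraries. The oligodendrocyte libraries stood far above both other classes, and vGluT2-Cre replicate 1 was lowest in all 3. Precursors averaged 61.1 ± 18.2 CPM and oligodendrocytes 1648 ± 178 CPM (SD, n = 4 libraries), a log2 fold change of -4.96 (SE 0.19, adjusted p = 8.81e-30), lower in 4 of 4 libraries. Astrocytes averaged 51.4 ± 3.82 CPM, a log2 fold change of -5.06 against oligodendrocytes (SE 0.16, adjusted p = 2.06e-33), lower in 4 of 4 libraries. A count was found in 9811 of 11176 oligodendrocytes, and 71.3% were expected to hold one at 1000 counts per nucleus.

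Adipor2 also varied among the oligodendrocytes. Its mean was 1038 ± 130 CPM in cluster 1, with Synpr and Opalin among its leading genes, and 1898 ± 203 CPM in cluster 3 and 1880 ± 200 CPM in cluster 6, with Klk6 and Piezo2 among its leading genes. At the finer clustering the oligodendrocyte clusters ranged from 806 to 2242 CPM. This spread between clusters is a description and was not tested.

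Endothelial cells came second, with 624.5 and 740.4 CPM in the Ucn3-Cre libraries, and 344.3 and 615.9 CPM in the vGluT2-Cre libraries, against a mean of 60.2 ± 43.3 CPM in mural cells (log2 fold change 3.59, SE 0.30, adjusted p = 3.34e-14). vGluT2-Cre replicate 1 was again the lowest, and every endothelial library stood above every mural one. Oligodendrocyte markers reached 17.0% (8.92 to 25.4%) of their own level in the endothelial class, while Adipor2 reached 34.7% (24.8 to 41.8%). In the other 7 classes the markers were at 1.56 to 9.16% and Adipor2 at 3.1 to 5.78% of the oligodendrocyte level. The part of oligodendrocyte RNA in these low values was not tested. Their class means were 51.4 to 97.2 CPM and 6.3 to 9.4% of nuclei were expected to hold a count at 1000 counts.

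Neurons were lower than glia in Adipor2, with a log2 fold change of -1.45 (SE 0.12, adjusted p = 2.73e-15), in 4 of 4 libraries. Within neurons, glutamatergic cells averaged 57.7 ± 8.05 CPM and inhibitory cells 72.9 ± 19.1 CPM (log2 fold change -0.19, SE 0.18, adjusted p = 0.486). When the nuclei of the vglut2 table, without the 7 removed as doublets, took the place of the glutamatergic class, the change was -0.62 and was called (adjusted p = 0.0103). All 480 nuclei of that table, doublets included, averaged 42.7 ± 9.28 CPM.

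In oligodendrocyte precursors against oligodendrocytes Adipor2 was the 1 called gene of the 5, where 49.6% of all genes were called, 3050 higher and 3045 lower, against 3516 and 2295 with DESeq2. Igf1r had -0.31 (SE 0.15, adjusted p = 0.0761), and Lepr was at 0 in precursors and just short of the threshold (adjusted p = 0.0511). Adipor1, the other adiponectin receptor, averaged 29.0 ± 3.2 CPM in oligodendrocytes and did not follow Adipor2: it was highest in endothelial cells, at 85.7 ± 22.6 CPM. Astrocytes were below oligodendrocytes in Adipor1 by a log2 fold change of -0.53 (SE 0.13, adjusted p = 0.000255).

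The adiponectin list was read between glial classes. In astrocytes against oligodendrocytes, where 66.5% of all genes were called, all 7 genes tested were called, 3 higher and 4 lower, with a list median of -0.34 against -0.04 over all genes. The call on Appl1 was lost without the library block. Ppara, the fatty acid-sensing nuclear receptor, averaged 88.0 ± 13.3 CPM in astrocytes and 1.03 ± 0.0894 CPM in oligodendrocytes (log2 fold change 6.30, SE 0.21, adjusted p = 1.84e-31). Appl2, an adaptor related to the adiponectin receptor partner APPL1, averaged 483 ± 79.9 CPM in astrocytes and 162 ± 11.4 CPM in oligodendrocytes (1.49, SE 0.08, adjusted p = 1.75e-23). Cdh13 was lower (-2.04, SE 0.29, adjusted p = 1.14e-08). In oligodendrocyte precursors against oligodendrocytes, where 49.6% of all genes were called, 3 of the 7 were higher and 2 lower, with Cdh13 now higher (5.79, SE 0.14, adjusted p = 3.59e-38).

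Insulin, IGF and leptin genes were read in the same classes. In astrocytes against oligodendrocytes, beside the 66.5% of all genes called, 5 of 6 ligands and binding proteins were higher and none lower, with a list median of 2.44, among them Igfbp2 at 39.8 ± 2.75 CPM in astrocytes and 3.71 ± 0.693 CPM in oligodendrocytes (log2 fold change 3.34, SE 0.26, adjusted p = 1.47e-16). Of 24 signalling genes 9 were higher and 6 lower, with a median of -0.10, so the number called is near the background. Grb14 was lower, at 11.4 ± 1.94 CPM in astrocytes and 405 ± 35.1 CPM in oligodendrocytes (-5.25, SE 0.11, adjusted p = 7.75e-41), and Foxo3 was higher (2.17, SE 0.08, adjusted p = 1.91e-30). Leptin signalling had 5 of 9 higher and 3 lower, with Jak2 lower at 41.3 ± 5.79 CPM in astrocytes and 193.5 ± 25.3 CPM in oligodendrocytes (-2.28, SE 0.09, adjusted p = 2.07e-28). Of 7 other metabolic hormone receptors 4 were higher and 2 lower, among them Ghr, the growth hormone receptor, higher at 339 ± 46.4 CPM in astrocytes and 13.2 ± 3.67 CPM in oligodendrocytes (4.65, SE 0.13, adjusted p = 1.54e-36).

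The same lists were read between glutamatergic and inhibitory neurons, where 23.9% of all genes were called. Of 6 ligands and binding proteins 1 was higher, Pappa (log2 fold change 1.53, SE 0.37, adjusted p = 0.00135), and 2 were lower, Igfbp2 (-2.13, SE 0.39, adjusted p = 2.86e-05) and Igfbp4 (-3.00, SE 0.85, adjusted p = 0.00641). The call on Pappa was lost without vGluT2-Cre replicate 1, that on Igfbp4 without vGluT2-Cre replicate 2, and both without the library block. Of 24 signalling genes 1 was higher, Pik3cb, whose call was lost without the library block, and 2 were lower, a share below that of all genes. The lower genes were Foxo3 at 33.3 ± 6.09 CPM in glutamatergic and 72.3 ± 3.52 CPM in inhibitory neurons (-0.96, SE 0.13, adjusted p = 4.38e-08) and Grb10 at 114 ± 16.2 CPM in glutamatergic and 195 ± 20.7 CPM in inhibitory neurons (-0.69, SE 0.12, adjusted p = 4.70e-06). Of 7 other receptors 1 was higher and 3 lower, with Nr3c1 at 21.7 ± 4.70 CPM in glutamatergic and 63.8 ± 2.92 CPM in inhibitory neurons (-1.43, SE 0.17, adjusted p = 7.59e-10).

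The remaining list results were as follows. In oligodendrocyte precursors against oligodendrocytes, beside 49.6% of all genes called, 4 of 6 ligands and binding proteins were higher and none lower (list median 1.33, against -0.07 over all genes), led by Igfbp4 at 12.6 ± 7.53 CPM in precursors and 0.532 ± 0.286 CPM in oligodendrocytes. Of 24 signalling genes 4 were higher and 6 lower (median 0.02), of 9 leptin signalling genes 2 and 2 (median -0.10), and of 7 other receptors 4 and 2 (median 0.61). The signalling and leptin counts lie below the share of all genes. Grb10 led the signalling genes, at 30.5 ± 5.02 CPM in precursors and 0.947 ± 0.400 CPM in oligodendrocytes.

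In vascular cells against glia, beside 48.3% of all genes called, 1 of 6 ligands and binding proteins was higher and 1 lower (list median -0.08, against -0.16 over all genes), 7 and 7 of 24 signalling genes (median 0.04), 3 and 1 of 9 leptin signalling genes (median 0.38), 1 and 2 of 7 adiponectin signalling genes (median 0.23) and 3 and 2 of 7 other receptors (median -0.04). Adipor1 was the higher gene of the adiponectin list (log2 fold change 1.34, SE 0.25, adjusted p = 1.10e-05). In neurons against glia, beside 61.6% of all genes called, none of 6 ligands and binding proteins was called (median -0.52), 4 of 24 signalling genes were higher and 11 lower (median -0.20), 3 of 7 adiponectin signalling genes were higher and 2 lower (median 0.02), and 1 of 7 other receptors was higher and 3 lower (median -0.14). Pik3r1, a regulatory subunit of phosphoinositide 3-kinase, was the lowest of the signalling genes (log2 fold change -2.90, SE 0.10, adjusted p = 2.53e-31).

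In molecular layer interneurons against inhibitory neurons, beside 14% of all genes called, 1 of 6 ligands and binding proteins was higher and 1 lower (median 0.36, against -0.06 over all genes), 2 and 2 of 24 signalling genes (median 0.09), none of 9 leptin signalling genes (median -0.12), 1 lower of 7 adiponectin signalling genes (median -0.05) and 1 higher and 3 lower of 7 other receptors (median -0.46). The lower adiponectin gene was Cdh13, at 14.2 ± 12.6 CPM in molecular layer interneurons and 153 ± 22.1 CPM in inhibitory neurons (log2 fold change -3.16, SE 0.40, adjusted p = 1.29e-08).

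The genes whose pattern over 36 sums of class and library was most like each of the 5, by Pearson correlation of log2(CPM + 1) among 11227 genes, are given as a description, since sums of a library share its depth. For Igf1 they were Hcrtr2 (r = 0.896), Rnf207 (0.876) and Cdh9 (0.862). For Lepr they were Crispld1 (r = 0.876), Kif26a (0.837) and Mkl2 (0.823). For Igf1r they were Sgms1 (r = 0.957), AU021092 (0.922) and Wfdc1 (0.922), and for Insr they were Isg15 (r = 0.915), Gch1 (0.902) and Grap (0.890). For Adipor2 they were Vmp1 (r = 0.870), Sh3tc2 (0.852) and Mobp (0.852), a myelin gene. Among the 5 genes, Insr and Igf1r were most alike (r = 0.771).

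The lines were compared over all nuclei, 2 libraries against 2, a design in which line and age cannot be told apart. In sums over all nuclei fewer cells of a type and less RNA per cell cannot be told apart, and endothelial cells made up 4.2 and 4.23% of nuclei in the Ucn3-Cre libraries against 1.34 and 4.77% in the vGluT2-Cre libraries. Igf1r had 514 and 418 CPM in the Ucn3-Cre libraries, and 346 and 412 CPM in the vGluT2-Cre libraries. The lines did not overlap for Igf1r, but the change did not pass the edgeR test (log2 fold change 0.31, SE 0.20, adjusted p = 1.00). Within the 3 sucrose libraries it was 0.13.

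Adipor2 had 818 and 811 CPM in Ucn3-Cre libraries, and 619 and 815 CPM in vGluT2-Cre libraries (0.19, SE 0.20). Insr had 166 and 172 CPM in Ucn3-Cre libraries, and 169 and 162 CPM in vGluT2-Cre libraries (0.05, SE 0.10), and Lepr 6.03 and 4.70 CPM in Ucn3-Cre libraries, against 4.84 and 5.34 CPM in vGluT2-Cre libraries (0.09, SE 0.60). Igf1 had 5.25 and 5.71 CPM in Ucn3-Cre libraries, and 10.1 and 4.81 CPM in vGluT2-Cre libraries (-0.42, SE 0.64). In these 4 genes the lines overlapped, and vGluT2-Cre replicate 1 was both the lowest library for Adipor2 and the highest for Igf1. That library also had the highest shares of glutamatergic neurons, 3.56% of its nuclei against 1.97 to 2.56% in the other 3 libraries, and of inhibitory neurons, 7.48% against 4.13 to 4.97%. Their part in its Igf1 level was not tested. None of the 13794 genes tested was called by edgeR (0% of genes), 478 had an unadjusted p under 0.05, and DESeq2 called 241, none of the 5 among them.

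**Figure D4:**
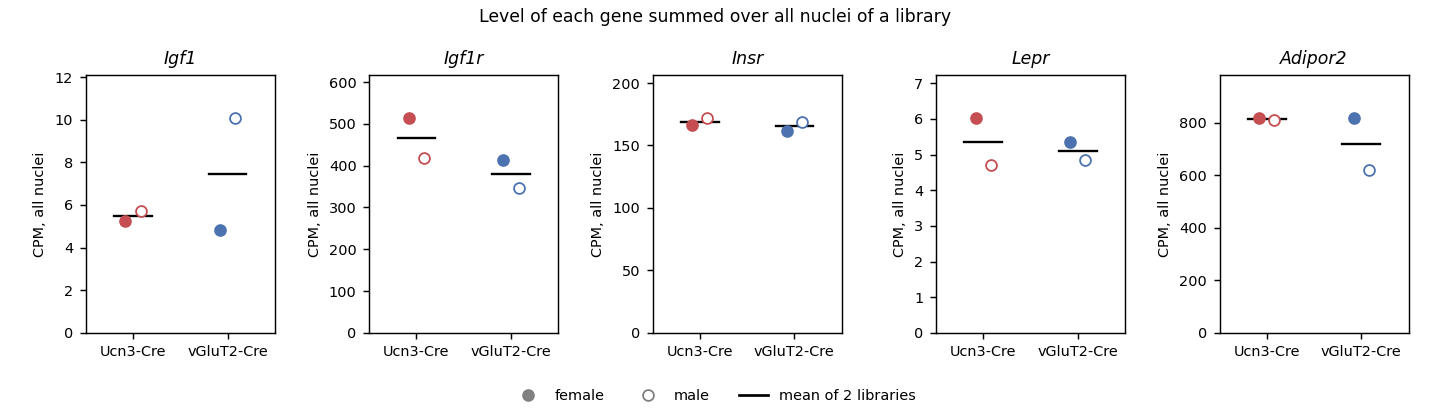
Level of each gene in CPM over all nuclei of a library, y axis, in Ucn3-Cre and vGluT2-Cre mice, x axis, with filled points for female and open points for male libraries and a black line at the mean of 2. The lines do not overlap for Igf1r (418 and 514 CPM in Ucn3-Cre, 346 and 412 CPM in vGluT2-Cre), and they overlap for the other 4 genes.

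Within classes, 32 tests of the 5 genes between the lines gave no call by edgeR, with adjusted p from 0.851 upward. Adipor2 had its largest changes, 0.82 in molecular layer interneurons (SE 0.46), 0.66 in oligodendrocyte precursors (SE 0.31), 0.55 in microglia (SE 0.41) and 0.52 in endothelial cells (SE 0.34). In glutamatergic neurons the changes were -0.11 for Igf1 (SE 0.36), -0.58 for Lepr (SE 0.93), while Igf1r was at -0.0021 (SE 0.17), Insr at -0.03 (SE 0.21) and Adipor2 at 0.0011 (SE 0.25). Over all genes edgeR called 0% in 6 of the classes, where 72 to 360 genes had an unadjusted p under 0.05 and DESeq2 called 0 to 195. It called 0.142% in microglia, 0.0264% in molecular layer interneurons and 0.0491% in oligodendrocyte precursors.

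Female and male samples were compared over the same libraries, with sex balanced over the lines. Adipor2 averaged 817 ± 1.70 CPM in female and 715 ± 135 CPM in male libraries (SD, n = 2 each), and Insr averaged 164 ± 3.04 CPM in female and 171 ± 2.26 CPM in male libraries. Lepr averaged 5.69 ± 0.488 CPM in female and 4.77 ± 0.0969 CPM in male libraries, and Igf1 5.03 ± 0.310 CPM in female and 7.90 ± 3.1 CPM in male libraries. In these 4 genes the ranges of the sexes did not overlap, but how many of all genes did so was not counted, so nothing is drawn from it. Adipor2 had 817.7 and 815.3 CPM in the female libraries. In the male ones it had 810.5 CPM in Ucn3-Cre replicate 2 and 619.4 CPM in vGluT2-Cre replicate 1, so the lower male mean rests on the latter. The only library from an iodixanol gradient was a female one. For Igf1r the ranges overlapped, at 463 ± 71.98 CPM in female and 382 ± 51.1 CPM in male libraries. The log2 fold changes of female over male were 0.26 for Adipor2 (SE 0.17), 0.0093 for Insr (SE 0.098), 0.32 for Lepr (SE 0.60), -0.58 for Igf1 (SE 0.61) and 0.34 for Igf1r (SE 0.19), and none was called. For Insr the fitted change and the CPM means differ in sign. Over all genes edgeR called 0%, with 448 at an unadjusted p under 0.05, and DESeq2 called 201, none of the 5 among them.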

How the data were processed

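Single-nucleus RNA-seq of mouse deep cerebellar nuclei was given as 4 library tables and a table of 480 of their nuclei. The submitters' processing notes name Cell Ranger 3.1.0, Seurat 3.2 and the build mm10. The deposited values are expected counts per gene and nucleus, not scaled for depth: 97.2 to 98.8% of the values above 0 lie within 0.5 below a whole number, and the step behind this is not given in the sources used here. The samples were grouped by their labels, and the genes and pathway lists were chosen with earlier results of these data known.

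A minimum of 200 genes per nucleus and a maximum of 5% mitochondrial counts removed 0 nuclei. Scrublet called 37 of 21494 nuclei (0.172%), too few to be used, so the highest-scored 0.8% per 1000 nuclei were removed (947). Values were scaled to 10000, and 2000 variable genes, 30 components, 15 neighbours and Leiden resolution 1 gave the clusters (scanpy 1.11.5, leidenalg 0.10.2, Python 3.11.15). The 5 genes and the lists were kept out of the clustering. The vglut2 table was sub-clustered with 1000 genes, 15 components and resolution 0.5. Class names came from marker lists.

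Counts were summed per library and class (at least 20 nuclei, or 5 for sub-clusters), rounded, and tested with edgeR 4.0.16 (quasi-likelihood, TMM, filterByExpr, library as block between classes) in R 4.3.3. The p-values were adjusted over all genes by Benjamini-Hochberg, with a threshold of 0.05. On simulated data with known changes, 54% of 2-fold and all 4-fold changes were recovered across classes, and 20% and 94% between the lines within oligodendrocytes. The changed genes had a mean of at least 20 counts per sum, with a single dispersion and no library effect. These rates do not cover genes with few counts, as Lepr and Igf1 have outside their leading classes. Intervals are exact at 95%, the limit for no count is 3 counts, and both cover counting error only. Beside the 5 genes, the text names up to 3 genes per list and direction, by fold among those called in the same direction in every library, and other genes where a count or marker needs them, chosen after their values were seen. The alternatives were DESeq2 1.42.0, its size factors, no filter, no block, the replicate number as block, other resolutions, doublets kept, values rounded up, the vglut2 table as a class, and each library left out.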

Additional observations from a re-analysis of the deposited data

Results flagged for a closer look

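In 7 of 46 groups of 4 libraries a library stood apart from the others by Dixon's criterion. Its rate of about 1 in 20 holds for independent normal values. The groups share counts, so 7 of 46 cannot be set against that rate. Over all nuclei, vGluT2-Cre replicate 1 had 619.4 CPM of Adipor2, with the nearest library at 810.5 CPM, and 10.1 CPM of Igf1, with the nearest at 5.71 CPM. Insr stood apart in endothelial cells of Ucn3-Cre replicate 2, at 611.5 CPM beside 491.5 CPM in the nearest library. It did so too in oligodendrocyte precursors of vGluT2-Cre replicate 2, at 126.7 CPM beside 184.4 CPM. Lepr in glutamatergic neurons was 3.02 CPM in Ucn3-Cre replicate 2, with the nearest library at 8.27 CPM. The other 2 cases were single counts of Lepr, with the other 3 libraries at 0, a pattern that always meets the criterion. Microglia of Ucn3-Cre replicate 2 had 2.63 CPM, and molecular layer interneurons of vGluT2-Cre replicate 2 had 8.09 CPM.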

How the results depend on the processing

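Of 24 called results on the 5 genes, 260 of 265 alternatives stayed called in the same direction, 5 lost the call and 0 reversed. The losses were Igf1 (1.49) and Lepr (-1.38) in glutamatergic against inhibitory neurons without the library block, which left 0 of the 5 genes called there, Igf1r in astrocytes against oligodendrocytes without Ucn3-Cre replicate 1 (-0.31), Lepr in molecular layer interneurons against inhibitory neurons without vGluT2-Cre replicate 1, and Lepr in neurons against glia without vGluT2-Cre replicate 2. Leaving out a library gave 1 to 2 genes called in molecular layer interneurons against inhibitory neurons. The number called became 2 across sub-clusters without a filter, and 2 in oligodendrocyte precursors against oligodendrocytes at Leiden resolution 2, without the library block and with values rounded up. DESeq2 added calls on Igf1r in molecular layer interneurons against inhibitory neurons (0.49), and on Igf1 in neurons against glia and Lepr in vascular cells against glia, whose folds are not given since they average over classes at 0. The cause of these changes was not tested.

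Changes of sign were all in results with no call. With each library left out, Insr ranged from -0.025 to 0.055 in female against male samples, from -0.061 to 0.24 in molecular layer interneurons against inhibitory neurons, and from -0.074 to 0.13 in oligodendrocyte precursors against oligodendrocytes. Between the lines the range was -0.017 to 0.45 for Adipor2, -0.82 to 0.17 for Igf1 and -0.14 to 0.30 for Lepr. Adipor2 in vascular cells against glia was 0.13 with doublets kept and 0.012 at Leiden resolution 2. With DESeq2, Igf1 was -0.23 in endothelial against mural cells and 1.3 in vascular cells against glia, neither a usable estimate since mural cells were at 0.

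Over all genes, 2938 were called between glutamatergic and inhibitory neurons, 1517 without the library block and 1689 without vGluT2-Cre replicate 2. Between the lines DESeq2 called 195 genes within oligodendrocytes and 78 within astrocytes, where edgeR called 0 (333 and 360 at an unadjusted p under 0.05). Of 171 calls on list genes, 4 were lost with the RLE scaling, 7 with DESeq2, 18 without the library block, 8 to 22 with a library left out, and none reversed. Deviations of same-numbered libraries from the mean of their line correlated at 0.138. With 2 libraries per line, both pairs give this same value by construction. It therefore cannot decide whether the replicate numbers mark a pairing. With the replicate block 0 of the 5 genes and 0 of all genes were called between lines or sexes over all nuclei (187 and 167 at an unadjusted p under 0.05), and 0 of the 5 genes within classes. Depth limits Lepr and Igf1, which rest on few counts outside their leading classes.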

Other observations

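Beside the 9 classes compared, 19 nuclei were named perivascular macrophages, the resident macrophages along brain vessels, which are too few for a test. Igf1 had a count in 9 of them (47.4%, exact 95% interval 24.5 to 71.1%), from 24.5 counts in all, with 0 and 1 nuclei in the Ucn3-Cre libraries and 3 and 5 nuclei in the vGluT2-Cre libraries. Pooled over libraries this was 621 CPM, while microglia averaged 1.65 CPM. Igf1r had a count in 10 of the 19 nuclei, at 512 CPM pooled, and Lepr in none.

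A further 79 nuclei were named fibroblasts, led by Cemip, Lama1 and Dcn. Igf1r had a count in 52 of them (65.8%, exact 95% interval 54.3 to 76.1%), at 646 CPM pooled, below the endothelial class at 2523 CPM. Igf1 was found in 3 and Lepr in 1 of the 79 nuclei.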
